A study of Callithrix jacchus with 3 samples.

Results

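The longest small RNAs of adult marmoset testis (Callithrix jacchus, a monkey of the New World) are described here: all sequences of 34 to 51 nt listed in the total small RNA library. They were chosen by length alone, and numbered 47890 of 2668455 distinct sequences (1.79%), with 183122 of 14138166 reads (1.30%). Total small RNA came from wild-type testis at 41 months of age. For comparison, small RNA that was immunoprecipitated with MARWI (MARWI-IP) came from wild-type testes at 41 and 51 months, with 2 replicates per the labels deposited as 1 column, which lists 24 to 33 nt alone. RNA-seq of wild-type testes at the same ages belongs to the series and was not used here. With 1 library of total small RNA there is no replicate error, and no test between conditions was possible. Each interval given is an exact 95% interval by the Clopper-Pearson method. It covers counting error alone, because reads without molecular identifiers are not independent molecules.

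PIWI proteins of male germ cells, of which MARWI is the marmoset counterpart of mouse MIWI, bind piRNAs, small RNAs that mostly begin with uridine (U). A piRNA is cut from a longer transcript, and its 3′ end is then trimmed to the length the PIWI protein covers, so a precursor shares the 5′ end of the piRNA and runs past its 3′ end. A PIWI protein guided by a piRNA cuts its target opposite guide bases 10 and 11, so that the 5′ end of the target's 3′ fragment overlaps the guide by 10 nt and carries an A at position 10 where the guide begins with U. Small RNA libraries of this length also hold fragments of abundant RNAs: pieces of transfer RNAs (tRNAs) cut in the anticodon loop, ends of ribosomal RNA (rRNA), Y RNAs of the Ro ribonucleoprotein, and small nuclear and nucleolar RNAs.

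The leading sequences are shown first, because 10 of them held 22.7% of the reads. They are the 10 most abundant sequences, printed 5′ to 3′ with T for U, and capitals mark the bases past the end of the commonest 26 to 32 nt sequence with the same first 20 nt.
28S rRNA start, 36 nt, 9528 reads: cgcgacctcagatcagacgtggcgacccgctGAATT
28S rRNA start, 34 nt, 6639 reads: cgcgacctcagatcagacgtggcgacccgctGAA
tRNA-Gly-GCC start, 35 nt, 4464 reads: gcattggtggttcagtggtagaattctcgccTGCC
28S rRNA start, 35 nt, 4087 reads: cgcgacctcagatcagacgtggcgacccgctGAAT
unlisted sequence 1, 34 nt, 3815 reads: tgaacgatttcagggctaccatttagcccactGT
Y-RNA-1 start, 34 nt, 2749 reads: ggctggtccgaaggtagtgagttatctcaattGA
tRNA-Glu-TTC-b start, 34 nt, 2683 reads: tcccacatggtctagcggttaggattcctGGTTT
Y-RNA-4 start, 34 nt, 2563 reads: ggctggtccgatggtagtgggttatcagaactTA
tRNA-Lys-TTT start, 34 nt, 2543 reads: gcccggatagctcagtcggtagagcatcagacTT
unlisted sequence 2, 34 nt, 2520 reads: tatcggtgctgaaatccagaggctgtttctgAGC
Each of the 10 began with the first 20 nt of a 26 to 32 nt sequence of 100 or more reads, and each contained that end's commonest 26 to 32 nt form whole. Of the 10, 8 were the starts of rRNA, tRNAs or Y RNAs, and 2 matched no listed RNA.

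A second set is shown for its 5′ ends. In each pair below, the first 10 nt of a long sequence (capitals) are the reverse complement of the first 10 nt (capitals) of a 26 to 32 nt sequence of 100 or more reads.
long sequence 1, 35 nt, 648 reads: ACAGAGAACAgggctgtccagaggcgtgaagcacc
its partner, 31 nt, 228 reads: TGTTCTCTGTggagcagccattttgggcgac
long sequence 2, 35 nt, 234 reads: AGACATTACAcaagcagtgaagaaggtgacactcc
its partner, 30 nt, 6186 reads: TGTAATGTCTtctgttgaccatggagtctc
long sequence 3, 34 nt, 202 reads: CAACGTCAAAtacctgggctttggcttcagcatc
its partner, 30 nt, 1011 reads: TTTGACGTTGccttcctcatccagtaggat
long sequence 4, 35 nt, 186 reads: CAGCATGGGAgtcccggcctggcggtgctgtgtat
its partner, 29 nt, 1310 reads: TCCCATGCTGgatggtgcagctctagaga
long sequence 5, 34 nt, 165 reads: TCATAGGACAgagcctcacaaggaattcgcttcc
its partner, 29 nt, 915 reads: TGTCCTATGAgtctgtctccctaaatgtc
long sequence 6, 36 nt, 156 reads: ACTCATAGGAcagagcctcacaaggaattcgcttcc
its partner, 30 nt, 164 reads: TCCTATGAGTctgtctccctaaatgtcttg
These are the 6 most abundant long sequences with such a partner, chosen after their values were seen. All 6 have A at position 10, as the first U of each partner requires. Sequences 5 and 6 overlap, starting 2 bases apart and ending at the same base, and their partners start 2 bases apart in the opposite sense.

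Reads fell at each step from 34 to 47 nt. There were 79353 reads of 34 nt (43.3% of the reads of 34 to 51 nt, interval 43.1% to 43.6%), 49319 of 35 nt (26.9%) and 38042 of 36 nt (20.8%). These lengths held 91.0% of the reads. The next step was steeper, to 8888 reads of 37 nt (4.85%), 4.28-fold fewer than at 36 nt. Distinct sequences fell by 2.57-fold at that step, from 8887 to 3455. Reads went on falling, through 3227 of 38 nt and 1177 of 40 nt, to 78 of 45 nt and 2 of 47 nt, and none was listed at 48, 49 or 50 nt. The only peak was at 51 nt, the greatest length in the library, with 8 sequences read once each, of which 5 consisted of a single base over more than 80% of their length. The labels give a gel purification by size without its limits, so the fall with length and the size selection cannot be told apart.

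**Figure D1:**
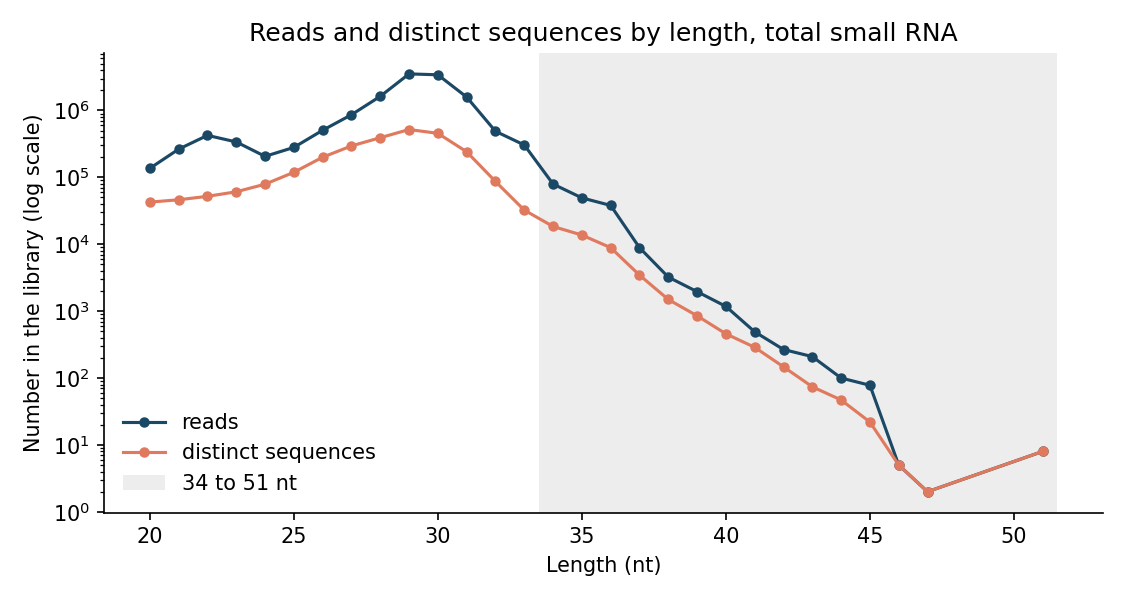
Number of reads and of distinct sequences (log scale) at each length in nt in the total small RNA library, with 34 to 51 nt shaded. Reads fall from 79353 at 34 nt to 2 at 47 nt, with a step between 36 and 37 nt and an isolated 8 reads at 51 nt.

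Reads were spread unevenly over the sequences. Of the 47890 sequences, 37796 (78.9%) were read once and together held 20.6% of the reads, whereas the 140 sequences with 100 or more reads held 46.4%. Shares of reads therefore describe a few RNAs, and shares of distinct sequences describe the many rare ones. Both are given below. Distinct sequences of 1 locus share bases and are not independent of each other.

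Fewer long reads began with U than piRNA-length reads did. U was the first base of 38.5% of reads and 46.8% of distinct sequences of 34 to 51 nt, against 84.0% and 75.5% at 26 to 32 nt. C was first in 25.4% of the long reads, G in 22.6% and A in 13.5%. The 28S rRNA start begins with C, and at 36 nt, where it had its commonest form, C led with 41.0% and U had 26.4%. Outside the listed RNAs, U was first in 50.8% of the long reads, against 86.9% at 26 to 32 nt. Over distinct sequences the share of U fell from 74.1% at 31 nt to 59.0% at 33 nt and 43.1% at 36 nt, with 49.6% in between at 34 nt, and was higher again, 56.9%, at 39 nt. The share of A as first base went the other way, from 9.79% at 31 nt to 23.9% at 35 nt.

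**Figure D2:**
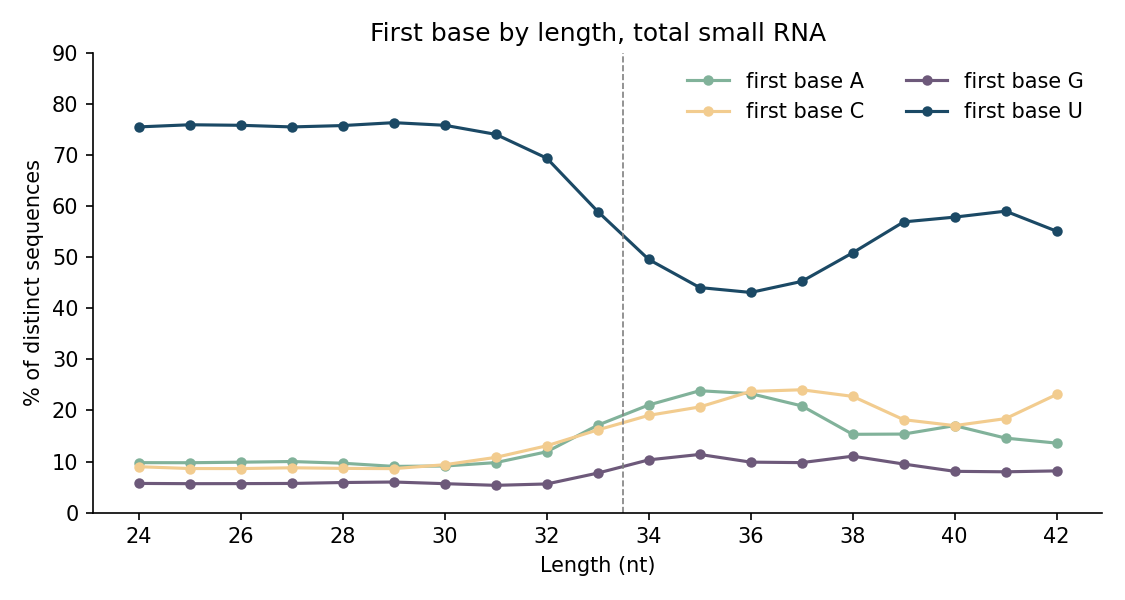
Share of distinct sequences (%) that begin with A, C, G or U at each length from 24 to 42 nt, with a dashed line between 33 and 34 nt. U falls from 74.1% at 31 nt to 43.1% at 36 nt while A and C rise, and U is at 56.9% at 39 nt.

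Known RNAs were sought by the first 18 nt of 55 listed starts and rRNA inner parts. They took 53030 reads (28.96%) but only 151 distinct sequences. tRNA starts held 12.1% of the reads of 34 to 51 nt, rRNA 11.4%, Y RNAs 5.33% and other listed RNAs 0.146%. Of the 55, 31 had reads at these lengths, 20 had 100 or more, and 24 had none. Of those 24, 14 did have reads of 20 to 33 nt, the most being 599 reads of tRNA-Ala-AGC. For a count of 0 a limit of 3 reads was used, 0.00164% of the long reads, and the upper end of its exact interval is 0.00201%. The listed sequences follow human RNAs, so marmoset RNAs that differ in the first 18 nt were missed.

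The start of 28S rRNA, the large RNA of the ribosome's large subunit, was the most abundant species, with 20428 reads in 4 sequences. This was 11.2% of the reads of 34 to 51 nt, and 48.0% of all 42518 reads with that start were 34 nt or longer. The commonest length of this fragment in the whole library was 36 nt, with 9528 reads, ahead of its 31 nt form with 7429. A further 826 long reads began 1 base before that start and none began 2 or 3 bases before it. The starts of 5S rRNA (232 reads) and 18S rRNA (123 reads) were much rarer. MARWI-IP held 313 reads of 24 to 33 nt with the same first 20 nt as the 28S rRNA fragment, of 110209593 in all. The other listed RNAs among the 10 leading sequences varied widely in this count. It was 2612639 (2.37% of MARWI-IP reads) for tRNA-Glu-TTC-b and 37360 for tRNA-Gly-GCC. Y-RNA-4 had 2671, Y-RNA-1 639 and tRNA-Lys-TTT 293.

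tRNA starts of this length reached into the anticodon, as the choice of 34 nt or more requires: for most tRNAs the anticodon lies at bases 33 to 35 or 34 to 36. Where the long reads ended is given as a description. The tRNA-Gly-GCC fragment had 6652 reads of 34 to 51 nt, but these were 1.34% of its reads, as its commonest length was 31 nt. Of its long reads, 6117 ended within the anticodon and 535 after it. tRNA-Lys-CTT had 6457 long reads, 24.1% of its total, whose commonest length was 32 nt, with 6175 ending within the anticodon and 282 after it. tRNA-Lys-TTT had 2918 (27.4% of its total), of which 2917 ended within the anticodon. All 3087 long reads of tRNA-Glu-TTC-b and all 1037 of tRNA-Glu-TTC-a, which differ from each other at few bases, also ended there, and they were 5.14% and 4.08% of the totals of these fragments, whose commonest length was 29 nt. Among the other tRNAs with 100 or more long reads, tRNA-Val-CAC had 680, tRNA-Cys-GCA 361, tRNA-Gly-CCC 173, tRNA-Val-TAC 149, tRNA-Asp-GTC 127 and tRNA-His-GTG 101. The selenocysteine tRNA, tRNA-SeC-TCA, which has longer arms than other tRNAs, stood apart in length. It had 331 long reads, 80.9% of its total, with 37 nt as its commonest length, and 120 of them ended before the anticodon and 208 within it. tRNA isodecoders share starts, so reads given to 1 name can come from several genes.

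Among Y RNAs, 3 had over 1000 long reads. Y-RNA-4 had 5367 long reads (21.5% of its total), with forms of 34 nt (2563 reads) and 36 nt (2299 reads). Y-RNA-1 had 3166 (16.8%), of which 2749 were a single sequence of 34 nt. Y-RNA-5 had 1084 long reads (26.8% of its total), of which 1057 were a single 34 nt sequence, its commonest length in the whole library. Y-RNA-3 had 137. The start of 7SL RNA, the RNA of the signal recognition particle, had 263 long reads and 14 shorter ones, and 1768 long reads when 1 mismatch was allowed. Reads of 7SL and of the repeats derived from it cannot be told apart by sequence here.

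**Figure D3:**
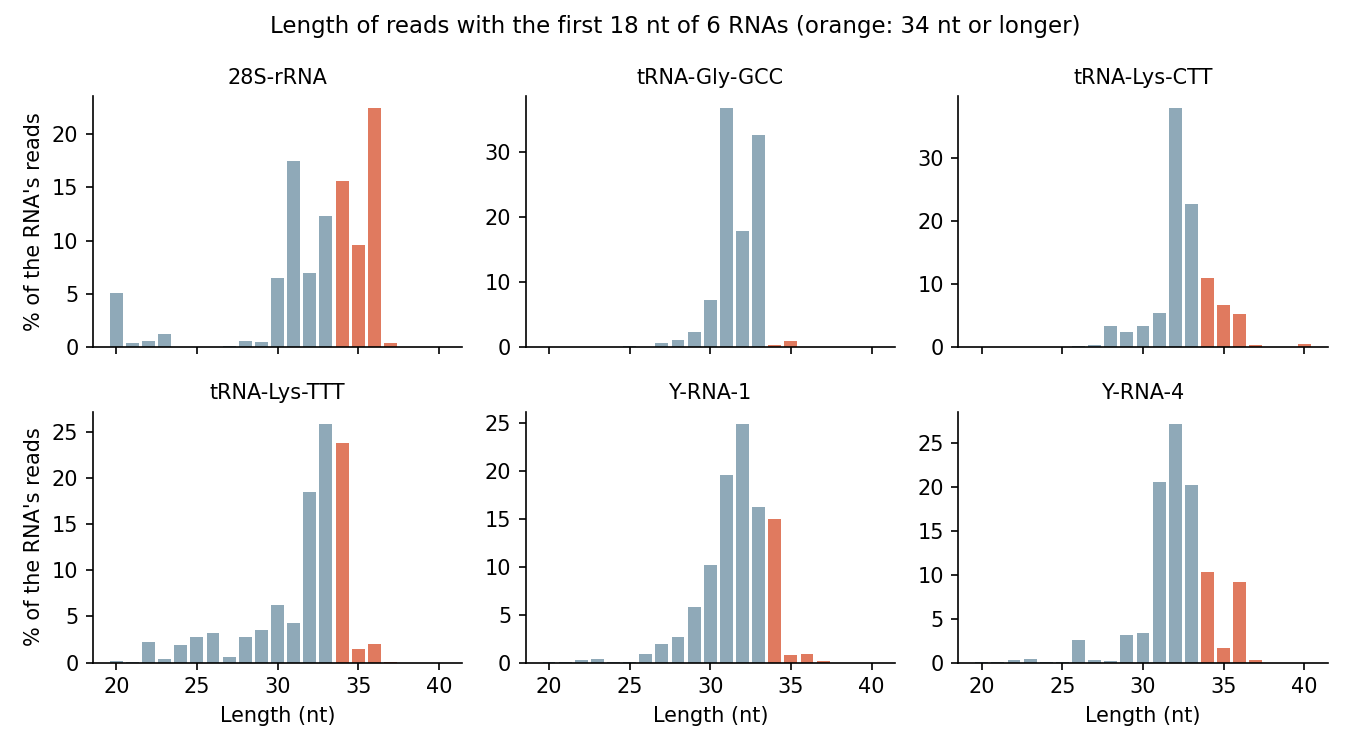
Share of each RNA's reads (%) at each length from 20 to 40 nt, for reads with the first 18 nt of 28S rRNA, 3 tRNAs and 2 Y RNAs, with lengths of 34 nt or more in orange. The 28S rRNA start is commonest at 36 nt and has 48.0% of its reads at 34 nt or more, whereas tRNA-Gly-GCC is commonest at 31 nt and has 1.34% there.

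Inner parts and 3′ ends of known RNAs, recognised after the leading sequences had been seen, added further reads. An inner part of tRNA-Lys-CTT had 3335 long reads against 349 of 20 to 33 nt, and its leading form, of 1924 reads, was the most abundant long sequence that began like no abundant 26 to 32 nt sequence. It spans the anticodon arm:
tRNA-Lys-CTT inner part, 36 nt: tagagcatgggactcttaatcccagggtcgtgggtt
The 3′ end of 5S rRNA had 1499 long reads, parts of 28S rRNA near its 3′ end 1432 and 554, an inner part of the initiator tRNA-iMet-CAT 795, a 3′ part of tRNA-Glu-TTC 630, and the 3′ end of U4, a small nuclear RNA of the spliceosome, 581. RMRP, the RNA of RNase MRP, had 258. With these parts and with 1 mismatch allowed, known RNAs took 38.1% of the long reads. Reads that ended in CCA, the end added to mature tRNAs, and held the T-loop letters GTTCGA or GTTCAA numbered 27 (0.0147%, interval 0.00972% to 0.0215%). Such reads were few at every length, but rarer at 26 to 32 nt (0.00452%) and lower still at 20 to 25 nt and 33 nt.

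The few reads above 41 nt had a leader of their own. The 3′ end of U1, another spliceosomal small nuclear RNA, gave the most abundant sequence at 42, 43, 44 and 45 nt, and 157 of the 654 reads of these lengths (24.006%). These forms end at the same base and differ at their 5′ ends, unlike the starts above:
U1 3′ end, 42 nt, 29 reads: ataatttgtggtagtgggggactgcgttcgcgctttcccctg
U1 3′ end, 43 nt, 75 reads: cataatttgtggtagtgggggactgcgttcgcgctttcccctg
U1 3′ end, 44 nt, 26 reads: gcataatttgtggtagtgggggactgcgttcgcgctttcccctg
U1 3′ end, 45 nt, 21 reads: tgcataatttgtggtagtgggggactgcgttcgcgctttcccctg
All U1 3′ end reads together were 339 long and 46 of 20 to 33 nt.

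Sequences laid out like box C/D small nucleolar RNAs, the guides of rRNA 2′-O-methylation, were also found. The letters searched, on the read's own strand, were TGATGA within the first 14 nt and CTGA within the last 9 nt, chosen after such sequences had been seen among the leaders. They had 2583 long reads (1.41%) in 287 sequences, against 0.303% of reads at 26 to 32 nt. Of the distinct sequences, 0.599% and 0.0817% matched. A match to these letters is a description and does not identify an RNA. The most abundant example is printed with both sets of letters in capitals:
C/D-like sequence, 37 nt, 366 reads: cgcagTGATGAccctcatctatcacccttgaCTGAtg

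The question of longer precursors was put by asking how many long reads begin like an abundant piRNA-length sequence. There were 13606 sequences of 26 to 32 nt with 100 or more reads, with 8939 different first 20 nt. Of the long reads, 74355 (40.6%, interval 40.4% to 40.8%) began with one of these, but only 1861 of the 47890 distinct sequences (3.89%) did. For comparison, the same was asked of the 20 nt that start 1 to 14 bases further in. There the share averaged 2.46% of reads (0.188% to 8.96%) and 0.592% of distinct sequences (0.311% to 0.929%). Most of the share of reads came from the RNAs described above: outside the listed RNAs, 17.0% of reads and 3.66% of distinct sequences began like an abundant sequence. That remainder still held inner parts and shifted starts of rRNA and tRNAs. Without these too, by the broader rule above, 13.9% of reads and 3.56% of distinct sequences did. The 10 leading 5′ ends held 57.5% of those matched reads. The 1747 unlisted sequences that began like an abundant sequence had U first in 83.0% of cases, against 45.6% of those that did not. Of the abundant 26 to 32 nt sequences themselves, 92.0% begin with U, so the match itself selects this first base.

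Seen from the abundant 5′ ends, long forms were rare. Of the 8939 ends, 1154 (12.9%) had at least 1 read of 34 to 51 nt. Among the 8914 ends outside the listed RNAs, 1130 had one, 157 had 10 or more, and the long reads were 0.340% of all reads with these ends. The ends of listed RNAs had 6.78% of their reads at 34 to 51 nt. For 46 unlisted ends the long reads exceeded 10% of the end's reads, and the 10 leading unlisted ends held 62.1% of the unlisted reads that matched. A tRNA not reported here is counted among these 10. The leaders also included other known RNAs that the list of starts misses: 28S rRNA from 1 base before its start (826 long reads), an inner part of tRNA-iMet-CAT (749), an inner part of tRNA-Lys-CTT (535) and tRNA-His-GTG from 1 base before its start (465).

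The 2 unlisted leaders differed in their shorter forms and in MARWI-IP. Unlisted sequence 1, of 34 nt, had 36.99% of the 10313 reads of its 5′ end, which had 5446 reads at 33 nt, 618 at 32 nt and 1 each at 35 and 36 nt. MARWI-IP held 2353 reads of this end. MARWI-IP is the deeper library, with 110209593 reads against 14138166, and counts of the 2 libraries are not scaled to each other. Unlisted sequence 2 had 78.9% of the 3194 reads of its end, with 388 at 33 nt and 150 at 31 nt, and MARWI-IP held 18 reads of it. The reads thus gathered at 33 and 34 nt in the first and at 34 nt in the second, with few beyond 34 nt in either. A further sequence, of 35 nt and 1380 reads, held 89.1% of its end's reads and had no read in MARWI-IP:
unlisted sequence 3, 35 nt: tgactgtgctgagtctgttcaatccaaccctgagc

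A few ends had long forms reaching well past their piRNA-length form. Those shown were picked after their values were seen, and other ends had such forms too. Ends are numbered by their long reads among the unlisted ends, leaving out the tRNA not reported here, with capitals as before.
unlisted end 8, 39 nt, 292 reads: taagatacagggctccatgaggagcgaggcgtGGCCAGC
unlisted end 10, 40 nt, 170 reads: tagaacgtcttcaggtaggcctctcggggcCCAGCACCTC
The first of these ends had 1369 reads at 26 to 32 nt and 419 at 34 to 51 nt (22.7% of the end's reads), with 346 reads in MARWI-IP. The second had 149 and 292 (65.8%), with 949 reads in MARWI-IP. These MARWI-IP counts too are not scaled for its greater depth, so they do not show enrichment. Unlisted end 11, with a 26 nt form and a leading 34 nt form, had 5661 reads in all. Of these, 1052 were at 26 to 32 nt and 270 at 34 to 51 nt (4.77%), so most lay outside both ranges. Unlisted end 11 had 0 reads in MARWI-IP. In another end, with first 20 nt ttcatggactggagatctga, the order was the usual one: 4746 reads at 26 to 32 nt, 255 at 34 to 51 nt (4.89%) and 69303 in MARWI-IP.

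In mouse and fly, consecutive piRNAs can be cut from 1 precursor so that a U follows the 3′ end of the earlier one. The base that followed the commonest 26 to 32 nt form was therefore read from the long sequences. Over the 1127 ends that could be read, each counted once, it was A in 34.4%, U in 26.6%, G in 21.3% and C in 17.7%. Counted over reads, U was at 29.7% with the listed RNAs and 6.62% without them, so that a few RNAs set the value. U was thus not the leading base over ends. The commonest form can end where trimming stopped, short of the cut, so the base after it need not be the base at the cut. Whether a U followed the cut was not tested.

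MARWI-IP gave a larger set of 5′ ends, 72948 against 8939, under a looser limit. Its 100 reads were summed over all forms of an end, in a library of 110209593 reads. In total small RNA, with 14138166 reads, a single sequence had to reach 100. Shares under the 2 limits are therefore not comparable. Of the unlisted long sequences, 9.05% began with the first 20 nt of a MARWI-IP end with 100 or more reads, against a mean of 1.99% (1.21% to 3.19%) for windows 1 to 14 bases further in. With any 26 to 32 nt sequence of the total library as reference, including those read once, 53.2% did, against 23.2% further in.

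The long sequences also differed from piRNA-length sequences at position 10. Of the 47739 distinct unlisted sequences of 34 to 51 nt, 57.1% (interval 56.6% to 57.5%) had A at position 10, against 32.3% at 26 to 32 nt. At the other positions from 2 to 20, A ranged from 25.5% to 32.7% in the long sequences, so among these positions the excess was at position 10 alone. At the third base from the 3′ end, A was at 35.9%, against 32.3% at 26 to 32 nt. By length, A at position 10 was at 33.8% at 31 nt, 36.9% at 32 nt and 45.4% at 33 nt. Sequences of 34 nt had 55.2%, those of 35 nt 61.1% and those of 36 nt 62.9%. It was then lower, with 55.7% for 37 nt, 41.3% for 38 nt and 34.98% for 39 nt (interval 31.8% to 38.3%). This feature was looked for after the leading sequences had been read, and is a description of 1 library.

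The share depended on the first base and on the kind of 5′ end. Among long sequences that began with another base than U it was 67.8%, against 45.002% in those that began with U, and the same order held at 26 to 32 nt, at 41.9% and 29.1%. Among the long sequences that began like an abundant 26 to 32 nt sequence, A at position 10 was at 35.7%. Among those with a MARWI-IP end of 100 or more reads it was 36.5%, against 59.1% in the rest. Put the other way, 5.78% of long sequences with A at position 10 had such a MARWI-IP end, against 13.4% of those without it.

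**Figure D4:**
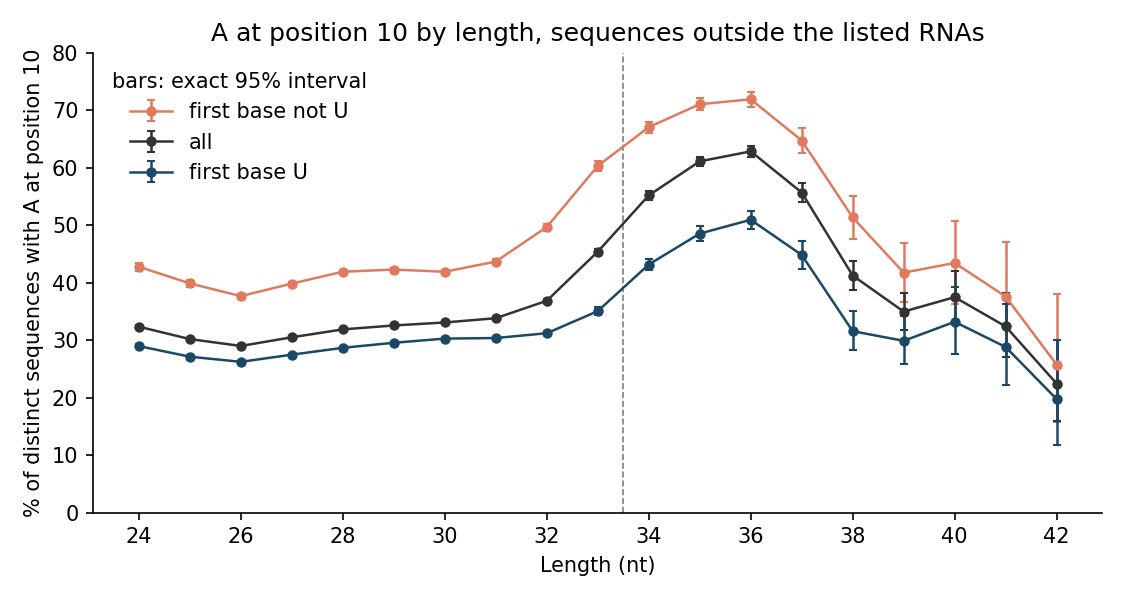
Share of distinct sequences outside the listed RNAs (%) with A at position 10, at each length from 24 to 42 nt, for all sequences and split by first base, with exact 95% intervals. The share rises from 33.8% at 31 nt to 62.9% at 36 nt and falls to 34.98% at 39 nt, and is higher throughout 24 to 39 nt where the first base is not U.

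Complementary partners were then counted. The first 10 nt were the reverse complement of the first 10 nt of an abundant 26 to 32 nt sequence in 3820 of the 47739 long sequences (8.002%, interval 7.76% to 8.25%). The same count for windows that start 1 to 14 bases further in averaged 2.19% (1.82% to 3.13%). At 26 to 32 nt the share at the start was 2.49%, against a mean of 1.55% further in. Because 92.0% of the abundant partners begin with U, a complementary start nearly always has A at position 10, and the excess of A alone raises the count. Among windows whose 10th base was A, the share was 13.4% at the start, against a mean of 7.22% (5.79% to 9.51%) further in.

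Other overlaps were counted in the same way. The share at the start divided by the mean further in was 3.65 for an overlap of 10 nt, between 0.844 at 9 nt and 1.05 at 11 nt, but it was also raised at longer overlaps, to 1.83 at 12 nt, 1.84 at 13 nt and 1.26 at 14 nt. Among windows whose last base was A, which sets aside the excess of A at position 10, the ratio was 1.86 at 10 nt. There it was 0.992 at 9 nt and 1.02 at 11 nt, and 1.68 and 1.77 at 12 and 13 nt, close to the value at 10 nt. By length, 7.42% of the sequences of 34 nt, 8.16% of 35 nt, 9.72% of 36 nt, 8.52% of 37 nt and 6.45% of 38 nt had such a partner. The intervals at 34 and 36 nt do not overlap, but sequences of 1 locus are not independent, so this is no test between lengths. A at position 10 also differed between these lengths, at 55.2% and 62.9%. With MARWI-IP starts of 1000 or more reads as partners, the share was 9.95%, against a mean of 3.04% further in. Among windows whose 10th base was A, it was 16.6%, against a mean of 9.92% (8.02% to 12.7%).

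**Figure D5:**
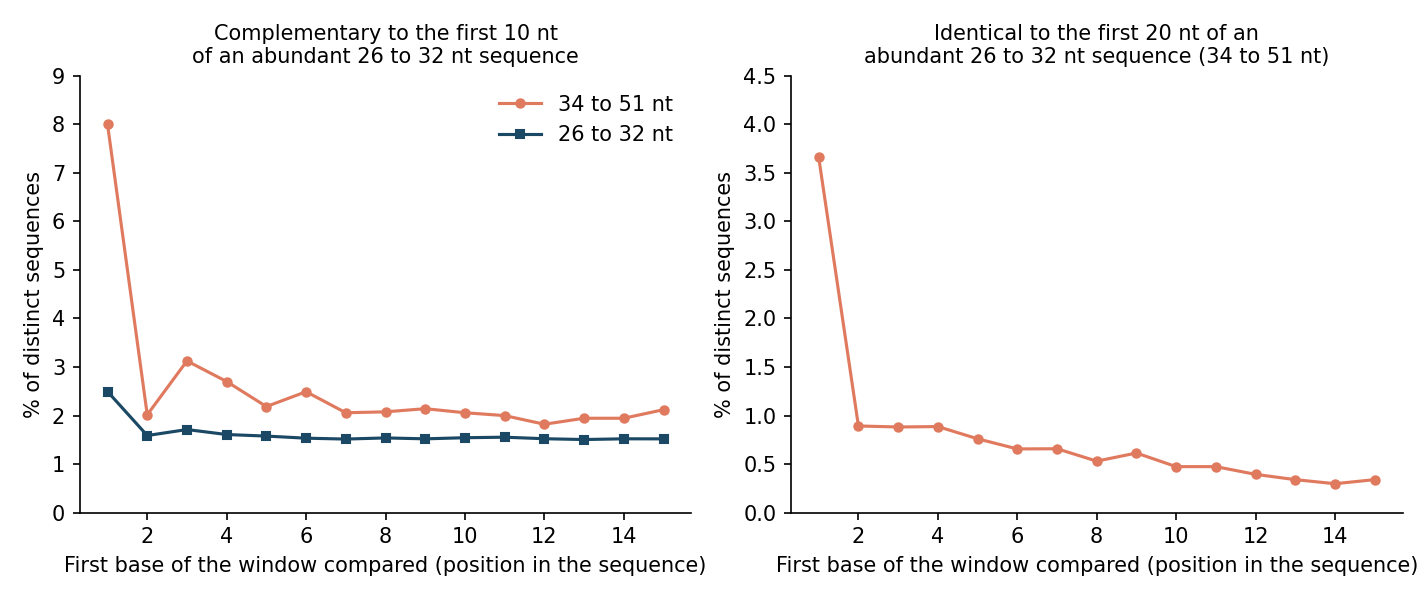
Left: share of distinct unlisted sequences (%) with a 10 nt window complementary to the first 10 nt of an abundant 26 to 32 nt sequence, by the position where the window starts, for 34 to 51 nt and 26 to 32 nt. Right: share of distinct unlisted sequences of 34 to 51 nt (%) with a 20 nt window identical to the first 20 nt of an abundant sequence. Both are highest at position 1, at 8.002% and 3.66%, and lower at positions 2 to 15.

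The complementary sequences were many. The 3820 sequences had 1882 different first 10 nt, and 66.9% of them were read once, against 78.9% of all long sequences. Together they had 12748 reads, or 9.80% of the unlisted long reads. U was first in 36.2%, near the 37.03% among all long unlisted sequences with A at position 10. The 10 commonest starts held 9.37% of them. The largest group was 94 sequences that began with CAGAATTTCA, with 14 different first 20 nt. Its partner, with 601 reads and 8435 MARWI-IP reads of the same first 20 nt, was:
partner of the largest group, 31 nt: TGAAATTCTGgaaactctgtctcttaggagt
In all 6 pairs shown at the start, the partner's first 20 nt had more MARWI-IP reads than those of the long sequence. The choice of pairs favours this order. Partners had to be abundant at 26 to 32 nt, whereas long sequences were ranked by reads of 34 nt or more. In total small RNA, the long sequences' first 20 nt had 152, 14, 199, 15, 55 and 59 reads at 26 to 32 nt, in the order printed. Each count was below the reads of its partner. Whether the MARWI-IP order goes beyond this choice was not tested. The partner of long sequence 2 had 27400 MARWI-IP reads of the same first 20 nt and the long sequence none. The partner of long sequence 4 had 8421 and the long sequence none. The partner of long sequence 5 had 5256, and the long sequence 3. For long sequence 3 these counts were 134 and 15. MARWI-IP lists 24 to 33 nt, so the long forms themselves could not be seen there. Pairs were found from sequence alone, without genome positions, so partners from repeats and from unrelated loci are among them.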

How the data were processed

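Total small RNA was gel-purified from testis RNA, and libraries were made with NEBNext small RNA reagents, per the labels. The deposited tables of total small RNA and MARWI-IP hold the read count of each distinct sequence as a whole number, without normalization or genome position. Bowtie, TopHat and Cufflinks are named in the submitters' processing notes. Not given in the sources used here are their versions and roles, the trimming, the filters and the build. Of the 1032 possible single-base variants of the 10 most abundant long sequences, 25 were listed, with 1202 reads against 41591 of the sequences themselves. Of these variant reads, 923 came from 1 variant of tRNA-Glu-TTC-b, which is the 34 nt form of tRNA-Glu-TTC-a. Whether reads had to match a genome to be listed is not stated. No read held the first 18 nt of a listed adapter, and 2 ended in the first 8 nt of the 5′ adapter.

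Each sequence was assigned to a listed RNA by its first 18 nt, from a list of 55 starts written from knowledge of human RNAs. The 11 inner parts of 14 nt were added after seeing the data. An abundant sequence had 100 or more reads at 26 to 32 nt. Named were the 10 most abundant long sequences, the most abundant sequence at a length peak, listed RNAs with 100 or more reads and the 10 abundant 5′ ends with most long reads; others were named after their values were seen. The members and lists were chosen with earlier results of these data known. A further tRNA is not reported here, and its reads remain among those outside the list. The RNA-seq table was not used here. No genome was used. The counting was tested on simulated data. Alternatives changed the weight (reads, distinct sequences, 5′ ends), the abundance limit, the matched bases and the sequences left out. Scripts ran under Python 3.11.15 with scipy 1.17.1, pandas 2.3.3, numpy 2.4.6 and, for figures, matplotlib 3.10.9.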

Additional observations from a re-analysis of the deposited data

How the results depend on the processing

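The limits are those of 1 library: no replicate could be left out, and counting error is the only error known. No paired analysis was possible because each dataset is 1 column of values. Rare lengths are thinly read, and above 41 nt shares rest on few sequences. Leaving out 51 nt moved none of the 6 planned shares it was tried on beyond its interval, nor did matching the first 24 nt or the whole abundant sequence move the share of long reads with an abundant start. The sets of alternatives for A at position 10 and for complementary starts were chosen after seeing the data.

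With each distinct sequence counted once, the share of the library was 1.79%, the share at 34 nt 38.5%, first U 46.8%, abundant starts 3.89%, listed RNAs 0.315%, U after the commonest form 25.8% and the CCA pattern 0.0292%. Without sequences read once these were 1.196% of the library, 44.7% at 34 nt, 36.2% first U, 50.4% abundant starts and 36.5% listed RNAs. Without the 10 most abundant sequences the share at 34 nt was 39.5%, first U 43.4% and abundant starts 23.1%. Without listed RNAs the share at 34 nt was 41.6%, first U 50.8%, abundant starts 17.0% and U after the form 6.62%. Counting a sequence as abundant from 10 reads gave abundant starts in 58.9% and U after the form in 26.3%, and from 1000 reads 30.2% and 37.97%. With each 5′ end counted once, U after the form was 26.6%. Added afterwards, any 26 to 32 nt sequence as reference gave 84.3% of long reads and MARWI-IP ends 41.2%. Leaving out known RNAs by the broader rule gave first U 50.3%, abundant starts 13.9% and U after the form 8.27%. Listed RNAs were 29.7% when sought anywhere in the read and 38.1% by the broader rule.

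A at position 10 was 48.9% over reads, 53.4% over 5′ ends and 65.4% without sequences read once. Complementary starts were 9.80% over reads, 6.69% over 5′ ends, 12.7% without sequences read once, 0.712% with partners of 1000 or more reads (0.141% further in), 9.95% with MARWI-IP partners and 7.31% without the 10 leading starts. The broader rule gave 57.5% and 8.08%.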
